A study of Mus musculus with 6 samples.

Results

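The deposited comparison of testis RNA from mice on a high-fat or a normal diet contained 398 transcripts that the authors assembled from their own reads, out of 831 transcripts listed in all. They were chosen here by name alone: an assembled transcript carries an identifier that begins with MSTRG, the prefix that StringTie gives when it merges assemblies, and the other 433 listed transcripts carry an annotated identifier. C57BL/6 mice had high-fat food for 8 weeks (3 libraries, numbered 10, 11 and 12) or normal food for 8 weeks (3 libraries, numbered 7, 8 and 9), and strand-specific RNA-seq libraries were made from whole testis with no other treatment named in the labels. Nothing in the labels ties a library to a separate animal, so p-values below describe library-to-library spread, part of which may be technical. In RNA from whole tissue, fewer cells of a type and less RNA per cell cannot be told apart.

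A reference-guided assembler joins spliced reads into exon chains and keeps chains that match no annotated transcript. Such a chain can differ from the annotation by a start site, a polyadenylation site, a splice junction or a retained stretch, or can lie outside every annotated gene. The testis is known for a large variety of transcripts, because meiotic and haploid germ cells use many promoters, splice forms and early polyadenylation sites of their own. Reads that are compatible with several overlapping transcripts are divided among them by an estimate, so the count of one transcript depends on which others were assembled beside it.

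The last 30 bases of several assembled transcripts are given first, because they show where pairs from 1 locus end and whether a polyadenylation signal lies there. The hexamer AATAAA or its variant ATTAAA, which directs cleavage of the nascent RNA shortly downstream, is in capitals. Sequences are from GENCODE M21 transcripts on GRCm38 and run 5′ to 3′ on the strand of the transcript.
Pik3cd MSTRG.21480.8, chr4:149649199-149649228, minus strand: caaccttgacacaacaggtaaagacaggtg
Pik3cd MSTRG.21480.4, chr4:149649170-149649199, minus strand: gaaaagaAATAAAaacgtttttatgttctt
Gm382 MSTRG.32438.2 and MSTRG.32438.3, chrX:127063957-127063986, plus strand: caaaAATAAAgtgttgcaaacttcttactt
Spaca3 MSTRG.4836.1 and MSTRG.4836.2, chr11:80867785-80867814, plus strand: gccaagtAATAAAagtctaatttgacagaa
Pex5l MSTRG.18151.12 and MSTRG.18151.22, chr3:32950630-32950659, minus strand: agacaagaatAATAAAggatactaatgtgt
Ropn1 MSTRG.11709.1, chr16:34678589-34678618, plus strand: actAATAAAcaattagccaggagcatgtgg
Tcp1 MSTRG.12412.2, chr17:12924532-12924561, plus strand: tctcacATTAAAgtacagcaagctgaccac
Cnot1 MSTRG.29325.11, chr8:95720160-95720189, minus strand: attttgaacttgtgtaaatatatgaaagag
Cnot1 MSTRG.29325.2 and MSTRG.29325.3, chr8:95719451-95719480, minus strand: cagaagagggcatcagctcccactacagat
Agbl5 MSTRG.22059.6, chr5:30906737-30906766, plus strand: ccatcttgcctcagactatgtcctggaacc

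The pairs of Gm382, Spaca3 and Pex5l ended at the same base, so their members differ upstream. The Pik3cd pair started at the same base and ended 29 bases apart, and only the longer member, MSTRG.21480.4, reached the AATAAA of its gene, which lies 17 bases before its end. None of the 3 Cnot1 transcripts held the hexamer in the last 30 bases.

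Starts that lie in a RefSeq promoter window (GRCm38.p6) are shown for 5 of the members, each from 80 bases before the RefSeq start to the 10 bases that open the transcript. Capitals mark the bases inside the assembled transcript, so a long stretch of capitals is a start upstream of the RefSeq one.
Pik3cd MSTRG.21480.8, chr4:149676080-149676169, minus strand: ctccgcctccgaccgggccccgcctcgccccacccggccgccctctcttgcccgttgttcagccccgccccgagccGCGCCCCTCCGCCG
Ldhc MSTRG.26666.2, chr7:46861183-46861272, plus strand: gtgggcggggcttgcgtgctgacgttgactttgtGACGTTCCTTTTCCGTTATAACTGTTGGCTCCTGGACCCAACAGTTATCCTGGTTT
Gm41109 MSTRG.8793.3, chr14:24429845-24429934, minus strand: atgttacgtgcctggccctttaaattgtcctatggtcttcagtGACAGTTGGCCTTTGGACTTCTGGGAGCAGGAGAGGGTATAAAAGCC
Polr2c MSTRG.29281.1, chr8:94857370-94857459, plus strand: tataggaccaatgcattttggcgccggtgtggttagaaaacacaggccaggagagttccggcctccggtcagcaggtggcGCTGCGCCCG
Tdrd12 MSTRG.26345.3, chr7:35537735-35537824, minus strand: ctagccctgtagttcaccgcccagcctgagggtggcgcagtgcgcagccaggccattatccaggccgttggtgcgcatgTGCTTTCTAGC

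Polr2c started at the RefSeq base, Tdrd12 1 base and Pik3cd 4 bases before it. Gm41109 started 37 and Ldhc 46 bases before it.

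Of the 398 assembled transcripts, 225 had a higher mean normalized count on the high-fat diet and 173 a lower one, which is 56.5% higher. Of the 433 annotated transcripts 54.3% were higher. The authors listed 831 of 95751 transcripts tested (0.868%), a number recovered from their adjusted p-values, and every listed transcript was selected for a difference between the same 6 libraries. Counts of calls in this table are therefore a description and no independent test of the diet. In edgeR's quasi-likelihood test 335 assembled transcripts had enough counts to be tested and all 335 had an adjusted p under 0.05, beside 99.7% of all 680 listed transcripts tested. Of these, 186 were higher and 149 lower, where 55.7% of all tested transcripts were called higher and 44% lower. With adjustment over all 95751 transcripts instead of the listed ones, 0 of the 335 were called by edgeR. The unlisted transcripts, whose p-values are not available here, entered that adjustment as not different. All 335 had an unadjusted p under 0.05, and DESeq2 on the table alone called 398.

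Sums of listed counts do not measure library depth, since every listed transcript was selected for a difference between the diets. Listed transcripts summed to between 427777 and 490603 counts in high-fat libraries, against 362790 to 402866 in normal-diet libraries, and assembled transcripts held between 57.2% and 62.8% of these counts. The authors' size factors, recovered from the table, were 0.908 to 1.14 in high-fat libraries and 0.940 to 1.09 in normal-diet libraries. Of 56 marker genes for somatic and germ cell types of the testis and for neighbouring tissues, 0 had an assembled transcript in the table and 1, a Leydig cell gene, had an annotated one. The labelled tissue could therefore not be checked against its defining markers.

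**Figure D1:**
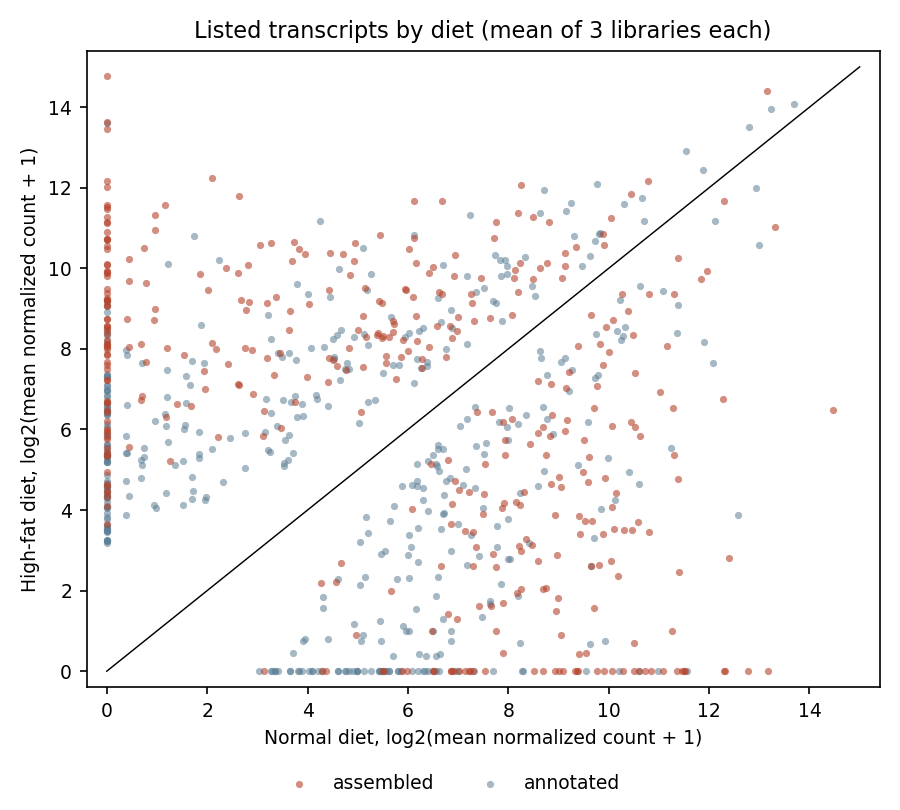
Mean normalized count of each listed transcript on the high-fat diet (vertical axis) against the normal diet (horizontal axis), both as log2 of the mean of 3 libraries plus 1, for 398 assembled and 433 annotated transcripts. The line marks equal means. Transcripts on the left edge had 0 counts in all normal-diet libraries (74 assembled) and those on the lower edge 0 counts in all high-fat libraries (43 assembled).

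Assembled transcripts were larger than the annotated ones beside them. They had a median of 11 exons (1 to 81), against 8 (1 to 53) in annotated transcripts. The median length was 3745.5 bases for assembled and 2731 bases for annotated transcripts, and the median genomic span 31041.5 and 20152 bases. Only 4 assembled transcripts had a single exon, against 22 annotated ones. Their level was also higher: the median of the mean normalized count per kb of transcript was 66.9 for assembled and 23.4 for annotated transcripts. No test was made of these differences, since transcripts of 1 locus are not independent.

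**Figure D2:**
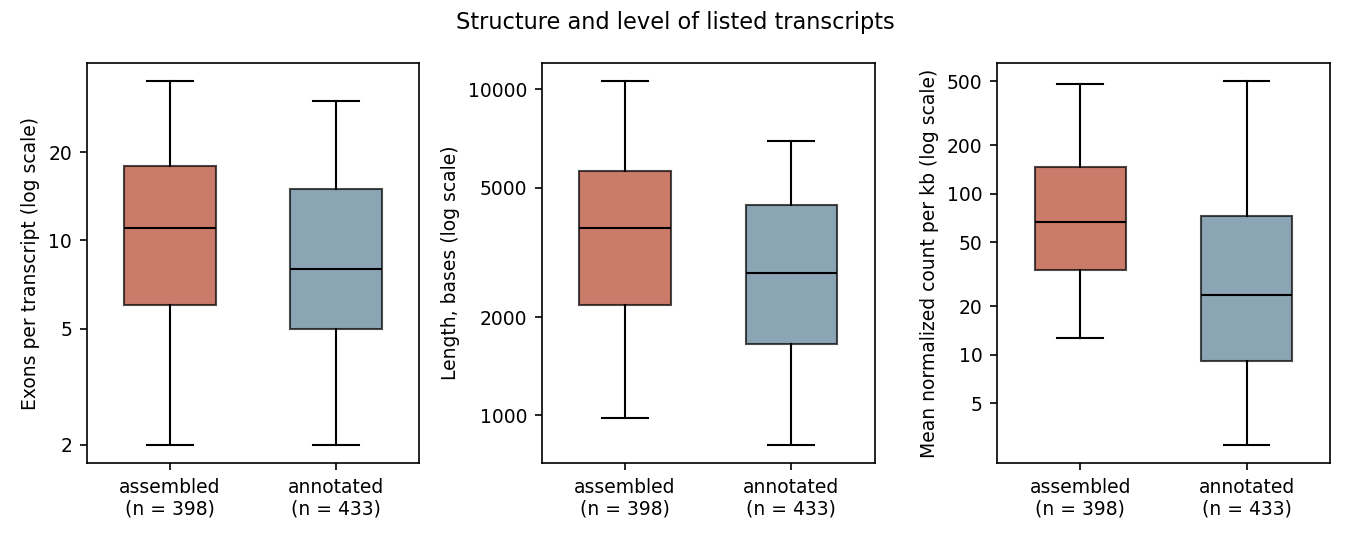
Exons per transcript, transcript length in bases and mean normalized count per kb, each on a log axis, for assembled (left) and annotated (right) transcripts. Boxes span the quartiles with the median as a line, and whiskers run from percentile 5 to percentile 95. The assembled medians were 11 exons, 3745.5 bases and 66.9 counts per kb, all above the annotated medians.

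Compared with GENCODE M21, 381 of the 398 overlapped an annotated gene on the same strand, and 343 of these were named by a protein-coding gene. The match was closer at the 3′ than at the 5′ end. The start lay within 50 bases of an annotated start in 117 (29.4%) and the end within 50 bases of an annotated end in 221 (55.5%). Among annotated transcripts, listed by the authors from their own annotation, these shares were 88.5% and 89.6%. Both ends matched those of a single annotated transcript in 31 assembled transcripts (7.79%), and 1 of these also had its number of exons and length. The 5′ ends of 173 assembled transcripts lay outside any annotated gene on the strand, 107 in an intron, 103 in an exon outside coding sequence and 15 in coding sequence. The 3′ ends lay outside genes in 148, in an intron in 33, in an exon outside coding sequence in 207 and in coding sequence in 10.

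Many assembled transcripts extended their gene. Of the 381 with a gene, 142 (37.3%) had more exons than any annotated transcript of that gene, and 233 (61.2%) were longer than any of them. None of the 433 annotated transcripts had more exons, and 20.8% were longer. Annotated transcripts come from an annotation themselves and could hardly have more exons, so they are no control for that count. A transcript over several genes was compared only with the gene that names it. More than 1000 bases lay outside the gene in 152 assembled transcripts and in 11 annotated ones.

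The last 50 bases could be read inside 1 annotated exon for 214 assembled transcripts, at 202 distinct ends. AATAAA or ATTAAA was present in 128 of them (59.8%), in 62.2% of 386 annotated listed transcripts, in 50.2% of GENCODE transcripts of the protein-coding type and in 33.8% of all GENCODE transcripts. Where the assembled end lay within 50 bases of an annotated end, 128 of 188 (68.1%) held a hexamer, and where it lay farther away, 0 of 26 did. Of those 26 ends, 5 lay in coding sequence, and all 26 lie inside an annotated exon because only such ends could be read. The share was 58.4% among transcripts higher on the high-fat diet and 61.8% among those lower.

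**Figure D3:**
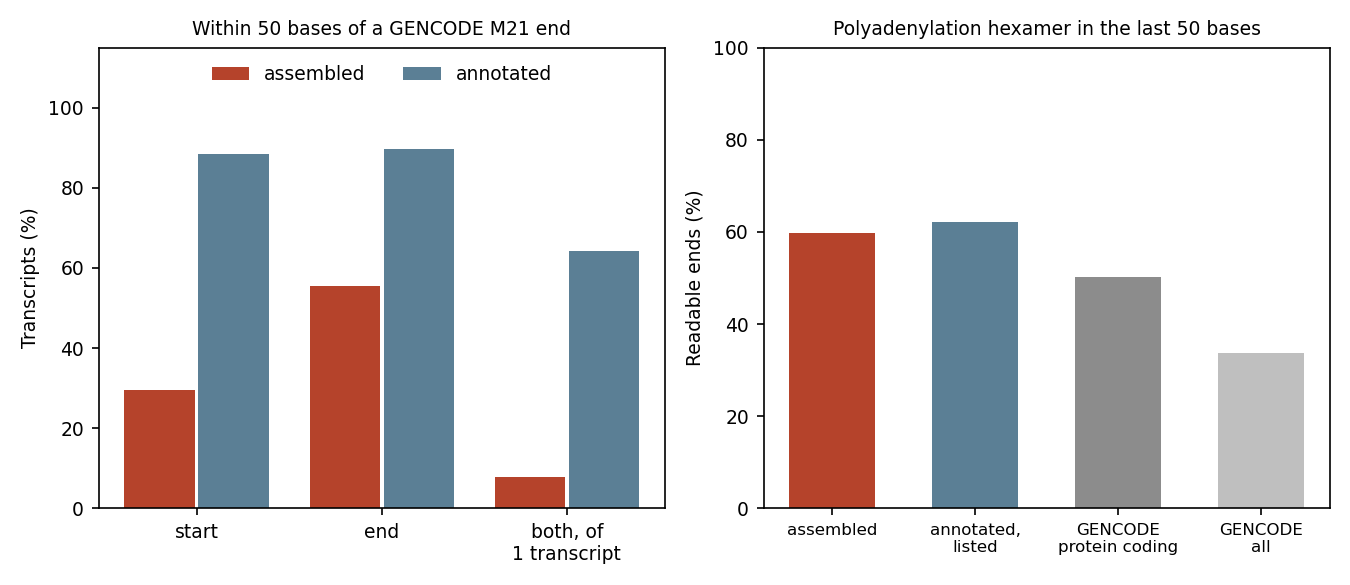
Left, percent of 398 assembled and 433 annotated listed transcripts whose start, end or both ends lay within 50 bases of those of a GENCODE M21 transcript. Right, percent of readable 3′ ends with AATAAA or ATTAAA in the last 50 bases. Assembled transcripts matched at the end (55.5%) more often than at the start (29.4%). The hexamer share of their readable ends was 59.8%, against 62.2% for annotated listed transcripts. Of the 214 readable assembled ends, 188 lay within 50 bases of an annotated end, so this share mostly reads annotated ends.

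The start of 78 assembled transcripts (19.6%) fell in a RefSeq promoter window, 42 of them upstream of the RefSeq start, 18 at it and 18 downstream. For annotated listed transcripts it was 198 of 433 (45.7%). In the 76 distinct windows of assembled starts, searched on both strands, the TATA sequence TATAAA was present in 15.8%, the cAMP response element TGACGTCA in 3.95% and the CCAAT box CCAAT in 44.7%. The corresponding shares were 13.6%, 1.79% and 37.4% of all 32851 RefSeq windows. In the 193 distinct windows of annotated listed starts they were 9.8%, 6.22% and 40.4%. TGACGTCA was found in only 3 windows of assembled starts, and none of the 3 motifs contains another.

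The authors' merge identifier placed the 398 transcripts in 371 loci. In 30 loci an annotated transcript was listed as well, and these held 36 assembled transcripts, 14 higher with high-fat food and 22 lower. The other 362 stood alone, 211 higher and 151 lower. Shared-locus transcripts had a median of 15.5 exons and 91.1 normalized counts per kb, against 11 exons and 64.1 counts per kb in those that stood alone. When listed counts were summed per locus, 291 of 313 loci with an assembled transcript were called by edgeR, 166 higher and 125 lower, beside 94.7% of all 608 loci tested. Transcripts of a locus that were not listed are missing from its sum, here and below.

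In 22 of the 30 shared loci an assembled and an annotated transcript of the same locus differed in opposite directions between the diets. Their summed counts were called in 6 of these 22 loci, 4 higher and 2 lower, and not in 16. In the other 8 loci every listed transcript had 1 direction, and all 8 sums were called, beside 94.7% of all 608 loci tested. Each transcript was listed for a difference between these libraries, so a sum of 1 direction was all but bound to be called. Opposite directions cancel in a sum at least in part, so no conclusion is drawn from the contrast. How far the opposite directions depend on how reads were divided among overlapping transcripts was not tested.

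Pik3cd encodes the p110δ catalytic subunit of phosphoinositide 3-kinase, best known from leukocytes. Its assembled transcript MSTRG.21480.8 (24 exons, 4909 bases) had counts of 4505, 4723 and 4626 in high-fat libraries, against 1599, 1761 and 2105 in normal-diet libraries. All high-fat libraries were above all normal-diet libraries, with log2 fold change 1.37 ± 0.18 (SE, edgeR adjusted p = 0.00279). MSTRG.21480.4 (24 exons, 4947 bases), which runs on to the AATAAA shown above, had counts of 51, 75 and 28 in high-fat libraries, against 1083, 996 and 99 in normal-diet libraries. The diets did not overlap, but normal-diet library 9 lay near the high-fat values (log2 fold change -3.81 ± 1.04, edgeR adjusted p = 0.0124, and 0.0959 with limma-voom). The annotated transcript of the locus was also lower on the high-fat diet, with 40, 44 and 30 counts in high-fat libraries against 996, 836 and 1284 in normal-diet libraries. It was highest in normal-diet library 9, where MSTRG.21480.4 had its lowest normal-diet count. The 3 together averaged 4674 ± 497 normalized counts on the high-fat diet and 3515 ± 358 on the normal diet (SD, n = 3 each), a difference that missed the threshold in edgeR (adjusted p = 0.0622).

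Cnot1 encodes the scaffold of the CCR4-NOT complex, which shortens the poly(A) tails of mRNAs. Its locus had 3 assembled transcripts and 1 annotated one, all with 49 exons. MSTRG.29325.11, which ended 709 bases before both other assembled forms, had counts of 5230, 6227 and 982 in high-fat libraries, against 125, 512 and 312 in normal-diet libraries. The diets did not overlap, and high-fat library 12 was the closest to the normal-diet values (log2 fold change 3.82 ± 0.91, edgeR adjusted p = 0.00819, and 0.0827 with limma-voom). MSTRG.29325.2 had 177, 53 and 29 counts in high-fat libraries, against 5264, 810 and 1213 in normal-diet libraries. MSTRG.29325.3, 12 bases shorter than it, had 69, 14 and 35 against 5947, 532 and 817. In both of these longer forms normal-diet library 7 was far above libraries 8 and 9. The sum of the locus averaged 4462 ± 3048 on the high-fat diet and 7736 ± 8796 on the normal diet and was not called by edgeR (adjusted p = 0.486).

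2610318N02Rik, a protein-coding gene, had the assembled transcript with the highest mean count of all 398. MSTRG.11432.1 (7 exons, 1470 bases, chr16:17113031-17121760, minus strand) had counts of 22975, 22380 and 20045 in high-fat libraries, against 8536, 10423 and 9203 in normal-diet libraries. Every high-fat library was above every normal-diet library (log2 fold change 1.25 ± 0.16, edgeR adjusted p = 0.0027). It started at an annotated start and ended 367 bases beyond the annotated gene. The annotated transcripts of the locus were lower on the high-fat diet, one with 123, 72 and 319 counts in high-fat libraries against 552, 954 and 1252 in normal-diet libraries. The 3 listed transcripts of the locus together were called higher, with 21941 ± 3800 on the high-fat diet and 10883 ± 852 on the normal diet (edgeR adjusted p = 0.00398).

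The other 5 of the 8 most abundant loci with opposite directions were Ropn1, Mtmr9, Fbxo3, Gm41109 and Polr2c. The assembled form of Ropn1, a protein of the sperm fibrous sheath, had 2805, 1997 and 2648 counts in high-fat libraries, against 448, 313 and 334 in normal-diet libraries (log2 fold change 2.78 ± 0.34, edgeR adjusted p = 0.00237). That of Fbxo3, an F-box protein of ubiquitin ligases, had 2778, 4233 and 4336 counts in high-fat libraries, against 1172, 1888 and 1212 in normal-diet libraries (1.42 ± 0.27, edgeR adjusted p = 0.00516). That of Polr2c, a subunit of RNA polymerase II, had 2038, 1417 and 1653 counts in high-fat libraries and 0 in all normal-diet libraries, at least 580-fold higher. All 3 were higher in every high-fat library than in any normal-diet library. The assembled form of Mtmr9, of the myotubularin family, was lower in every high-fat library, with 3062, 3161 and 3728 counts against 4476, 5552 and 5559 in normal-diet libraries (-0.63 ± 0.14, edgeR adjusted p = 0.0074). The Mtmr9 call was lost without normal-diet library 8 (0.0742) or 9 (0.0663). That of Gm41109 had 6, 9 and 8 counts in high-fat libraries, against 105, 84 and 759 in normal-diet libraries, where library 9 was highest (-5.28 ± 1.07, edgeR adjusted p = 0.00617). Of the 5 sums, only that of Gm41109 was called, and it was higher on the high-fat diet, opposite to its assembled form. It was 4408 ± 660 on the high-fat diet and 1163 ± 179 on the normal diet (edgeR adjusted p = 0.00275).

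Among smaller loci with opposite directions, the replicates were close in several. For Rnf5, a ubiquitin ligase of the endoplasmic reticulum, the assembled transcript had 958, 870 and 765 counts in high-fat libraries, against 134, 186 and 221 in normal-diet libraries, while the annotated one had 353, 326 and 311 against 888, 824 and 905. Both differed without overlap, and the sum was not called (1195 ± 249 on the high-fat diet and 1029 ± 63.3 on the normal diet, edgeR adjusted p = 0.466). For Kifc1, a minus-end kinesin, the assembled transcript had 88, 50 and 76 counts in high-fat libraries, against 234, 248 and 241 in normal-diet libraries. The annotated transcript of Kifc1 had the same number of exons, 11, and was 2357 bases long where the assembled one was 2354, but started and ended elsewhere. It had 386, 426 and 441 counts on the high-fat diet against 230, 268 and 217 on the normal diet. The Kifc1 sum was level, at 484 ± 34.6 on the high-fat diet and 469 ± 40.6 on the normal diet (edgeR adjusted p = 0.882).

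For Hectd2, a ubiquitin ligase of the HECT type, the assembled transcript had 0, 17 and 0 counts in high-fat libraries, against 881, 1218 and 1167 in normal-diet libraries. Its annotated transcript had 1002, 1049 and 1162 counts in high-fat libraries, against 319, 235 and 206 in normal-diet libraries. The assembled form had 1 exon more and reached further upstream, from 36539925 against 36554668 on chromosome 19. The sum for Hectd2 was 1064 ± 41.5 on the high-fat diet and 1308 ± 65.0 on the normal diet (edgeR adjusted p = 0.239).

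The assembled Ganab transcript overlapped 5 protein-coding genes, so its name is uncertain. It had 849, 587 and 500 counts in high-fat libraries, against 1767, 2523 and 3558 in normal-diet libraries. The annotated transcript with which it shared a locus was that of a neighbour, 1810009A15Rik.

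Dido1, Iqcg, Ppfia1 and Itsn1 were among the 8 loci with 1 direction. The assembled Iqcg transcript, from a gene needed for the sperm flagellum in mice, had 1949, 1522 and 687 counts in high-fat libraries, against 102, 66 and 22 in normal-diet libraries, and its annotated partner had 89, 88 and 138 against 36, 39 and 35. All high-fat values were above all normal-diet values in both. Dido1 was lower throughout: its assembled transcript had 5, 80 and 147 counts in high-fat libraries, against 1181, 948 and 2179 in normal-diet libraries.

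In 23 loci more than 1 assembled transcript was listed, 50 transcripts in all. They formed 31 pairs, of which 18 had the same number of exons and 5 differed in length by at most 20 bases. In 10 of the 23 loci the members differed in opposite directions: Atp13a3, Pik3cd, Cnot1, the locus of 1700010L04Rik and Mex3b, Gpat4, Plekho2, Gm382, R3hdm2, Fam161a and Spaca3. The sum, in which opposite directions cancel at least in part, was called in 1 of these 10, Spaca3.

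The Gm382 pair, on chromosome X, had values that excluded each other. MSTRG.32438.2 had 644, 479 and 490 counts in high-fat libraries and 0 in all 3 normal-diet libraries. MSTRG.32438.3 had 0 in all 3 high-fat libraries, against 425, 414 and 430 in normal-diet libraries. Both have 4 exons, start 33 bases apart, end at the same base and differ in length by 4 bases (4132 and 4136). Against a floor of 3 counts per library, which covers counting error only, MSTRG.32438.2 was at least 184-fold higher and MSTRG.32438.3 at least 139-fold lower on the high-fat diet. The sum was 540 ± 149 on the high-fat diet and 414 ± 32.8 on the normal diet and was not called by edgeR (adjusted p = 0.307).

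Spaca3 encodes a lysozyme-like protein of the sperm acrosome. MSTRG.4836.1 (6 exons, 1932 bases) had 932, 956 and 792 counts in high-fat libraries, against 140, 106 and 119 in normal-diet libraries. MSTRG.4836.2 (6 exons, 1203 bases) had 0, 0 and 7 counts in high-fat libraries, against 95, 281 and 150 in normal-diet libraries. The diets did not overlap for either, and both shared the AATAAA shown above while starting 1178 bases apart. Both starts lay upstream of the annotated gene, by 7914 and 6736 bases. Their sum was called higher by edgeR (895 ± 171 on the high-fat diet and 289 ± 69.0 on the normal diet, log2 fold change 1.63 ± 0.34, adjusted p = 0.00682).

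Gpat4 encodes an acyltransferase of the endoplasmic reticulum that begins glycerolipid synthesis. MSTRG.28412.3 had 303, 1235 and 637 counts in high-fat libraries, against 39, 55 and 97 in normal-diet libraries, while MSTRG.28412.5 had 251, 172 and 144 against 978, 803 and 1118. Neither overlapped between diets, and the sum was 902 ± 441 on the high-fat diet and 1006 ± 165 on the normal diet (edgeR adjusted p = 0.723). Fam161a, which encodes a protein of cilia and centrosomes, showed the same exclusion as Gm382 at far lower counts. Its MSTRG.3908.6 had 26, 80 and 20 counts in high-fat libraries and 0 in all normal-diet libraries. MSTRG.3908.3 had 0 in all high-fat libraries, against 83, 30 and 18 in normal-diet libraries.

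**Figure D4:**
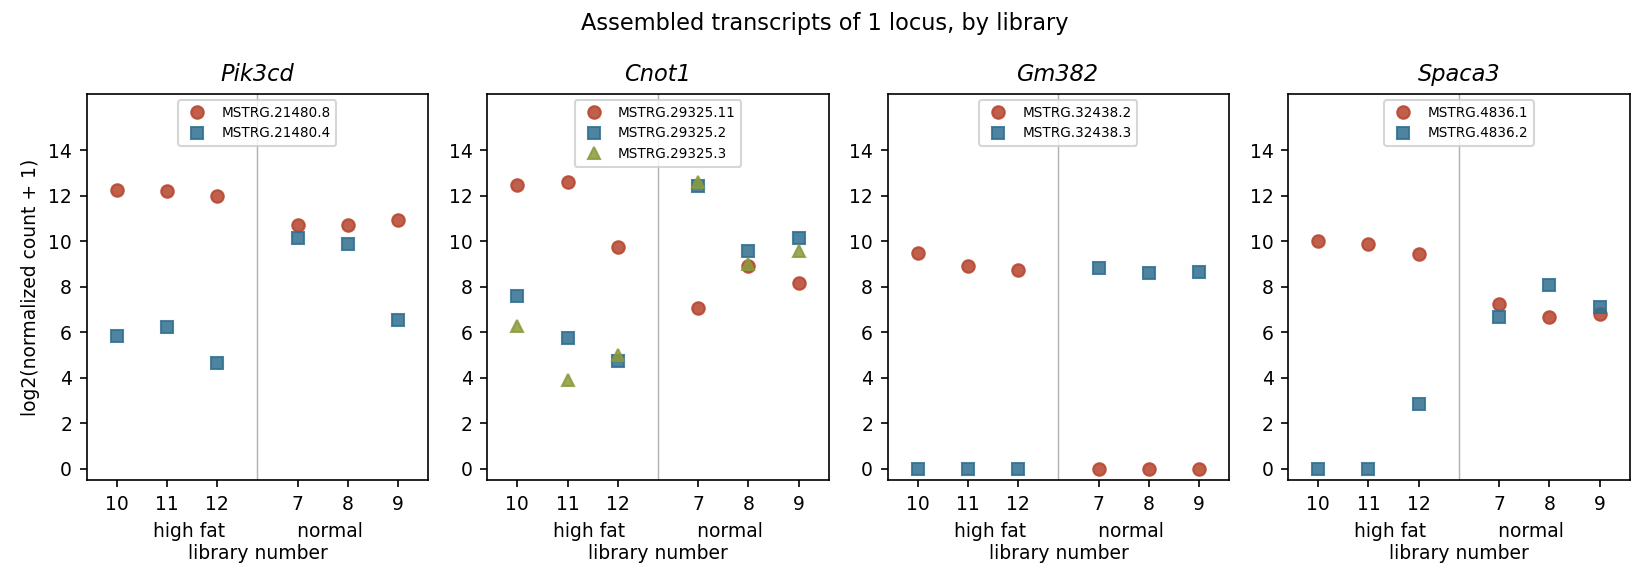
Normalized counts, as log2 of the value plus 1, of the assembled transcripts of 4 loci in each library, with high-fat libraries 10, 11 and 12 on the left and normal-diet libraries 7, 8 and 9 on the right of each panel. In each locus 1 transcript (circles) was higher on the high-fat diet and the others (squares and triangles) were lower. For Gm382 each member was at 0 in 1 diet.

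In the other 13 loci the members had 1 direction. The Pex5l pair differed by 3 bases of length and shared both ends. MSTRG.18151.12 had 16, 6 and 20 counts in high-fat libraries, against 161, 964 and 400 in normal-diet libraries, and MSTRG.18151.22 had 16, 6 and 21 against 176, 206 and 169. In the high-fat libraries the estimates of the pair were the same to within 1 count. Osgin1, a gene linked to oxidative stress, had 3 assembled transcripts that were all higher on the high-fat diet. Their sum was 1828 ± 109 on the high-fat diet and 283 ± 95.5 on the normal diet (edgeR log2 fold change 2.69 ± 0.34, adjusted p = 0.00307), with a spread in high-fat libraries far smaller than that of each member. MSTRG.29618.19, for example, had 521, 902 and 1545 counts in high-fat libraries, against 178, 26 and 44 in normal-diet libraries.

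Fxr1, which encodes an RNA-binding protein of the fragile X family, had members that alternated between libraries of 1 diet. MSTRG.18170.6 had 652, 5894 and 3686 counts in high-fat libraries, against 172, 12 and 11 in normal-diet libraries. MSTRG.18170.8 had 2961, 6 and 1466 counts in high-fat libraries, against 3, 6 and 14 in normal-diet libraries, so it was near 0 in high-fat library 11, where MSTRG.18170.6 was at its highest. The sum was steadier, at 4803 ± 994 on the high-fat diet and 75.4 ± 95.9 on the normal diet.

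Pan3, a subunit of a deadenylase, and Atp13a3, a P-type ATPase, also had 3 assembled transcripts each. MSTRG.23924.5 over Pan3 had 4381, 0 and 2307 counts in high-fat libraries and 0 in all normal-diet libraries, so high-fat library 11 stood with the normal diet. All 3 Pan3 members were higher on average and lowest in library 11 among high-fat libraries. MSTRG.11621.3 over Atp13a3 had 713, 1047 and 949 counts in high-fat libraries and 0 in all normal-diet libraries, while MSTRG.11621.1 had 97, 136 and 38 against 380, 1057 and 1177. Neither Atp13a3 form overlapped between diets.

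The most abundant transcript that stood alone was MSTRG.29634.6 over Dnaaf1, which encodes a factor that assembles the dynein arms of cilia and flagella. It had 27895, 19687 and 37615 counts in high-fat libraries and 0 in all 3 normal-diet libraries, which is at least 9473-fold higher against the floor. It has 12 exons, the most that any annotated form of the gene has, but is 5356 bases long, where no annotated transcript exceeds 2821 bases, and it ended 3326 bases beyond the gene. No other Dnaaf1 transcript was among those listed for its locus.

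Other abundant transcripts that were higher on the high-fat diet rested on some of its libraries. Osbp2 encodes an oxysterol-binding protein, and its MSTRG.3709.1 had 16611, 0 and 22392 counts in high-fat libraries and 0 in all normal-diet libraries. Sprtn encodes a protease that removes proteins crosslinked to DNA, and its MSTRG.29648.1 had 16969, 0 and 17265 counts in high-fat libraries and 0 in all normal-diet libraries. Usp2 encodes a deubiquitinase, and its MSTRG.30324.1 had 0, 7051 and 8634 counts in high-fat libraries, against 3, 7 and 0 in normal-diet libraries. In each of these 1 high-fat library was at 0, so the diets overlapped, and edgeR's filter left all 3 untested. The same held for MSTRG.423.4, which spans Dnah7c and Dnah7b, and MSTRG.31369.14, which spans Qrich1 and Qars.

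Among those lower on the high-fat diet, Ubtd1 and Ap2b1 were lower in every library. MSTRG.15194.1 over Ubtd1 had 3018, 1560 and 1616 counts in high-fat libraries, against 6611, 12780 and 12432 in normal-diet libraries (log2 fold change -2.28 ± 0.42, edgeR adjusted p = 0.00498). MSTRG.4870.13 over Ap2b1, a subunit of the clathrin adaptor AP-2, had 1, 16 and 1 counts in high-fat libraries, against 9608, 3407 and 3003 in normal-diet libraries (log2 fold change -9.79 ± 1.55, edgeR adjusted p = 0.00372). Tcp1, a subunit of the chaperonin that folds actin and tubulin, had the assembled transcript with the highest mean among those lower on the high-fat diet. Its MSTRG.12412.2 had 0, 37 and 261 counts in high-fat libraries, against 36444, 29891 and 592 in normal-diet libraries. Normal-diet library 9 lay close to high-fat library 12, and the call (edgeR adjusted p = 0.0218) was lost without high-fat library 11 (0.0807), without normal-diet library 7 (0.0592) or 8 (0.0571) and with limma-voom (0.360).

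Ldhc, the lactate dehydrogenase of male germ cells, had MSTRG.26666.2 at 0 in all high-fat libraries, against 9083, 0 and 19612 in normal-diet libraries. This is the transcript whose start is shown above, and it ended 1330 bases beyond its gene. MSTRG.755.10, which spans Glb1l and Atg9a, and MSTRG.6704.2, antisense to Kcnk10, likewise had 0 in all high-fat libraries and in normal-diet library 8.

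Complete absence from a diet was common. In 117 assembled transcripts (29.4%) all 3 libraries of a diet had 0 counts, 74 on the normal and 43 on the high-fat diet. For annotated transcripts the share was 30.7%. With at most 3 counts in each library of a diet, the shares were 36.9% of assembled and 44.3% of annotated transcripts.

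Assembled transcripts were more uneven within a diet than annotated ones, but those of shared loci were not. The highest over the lowest library of the higher diet had a median of 3.73 for assembled and 2.43 for annotated transcripts. It reached at least 10, a library at 0 included, in 131 assembled (32.9%) and 71 annotated transcripts (16.4%). In 26 assembled transcripts (6.53%) a library at 0 stood beside one with at least 100 counts on the same diet, against 4 annotated transcripts (0.924%). Fewer annotated transcripts could reach 100 counts, since their median of the mean normalized count was 58.7, against 264 for assembled ones. All 26 stood alone in their locus as far as annotated listed transcripts go. The library at 0 was not always the same: high-fat libraries 10, 11 and 12 were at 0 in 8, 5 and 4 of them, and normal-diet libraries 7, 8 and 9 in 2, 3 and 4. Omitting these 26 left 334 calls among assembled transcripts, 186 higher and 148 lower. It could hardly change the calls, since edgeR's filter had left 63 assembled transcripts untested with the 26 and 38 without them.

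The diets did not overlap in 344 assembled transcripts (86.4%), beside 91.3% of all listed transcripts and 95.8% of annotated ones. In 25 of those that did overlap, a library of the higher diet was at 0. Among assembled transcripts with counts in both diets and a mean of at least 100, those of Mtmr9, Adrb1 and Pik3cd (MSTRG.21480.8) were the most even by the larger of their SD-to-mean ratios in each diet. MSTRG.15395.1 over Adrb1, the β1 adrenergic receptor, had 76, 90 and 94 counts in high-fat libraries, against 147, 165 and 200 in normal-diet libraries. The diets did not overlap, and the difference (log2 fold change -0.96 ± 0.29, edgeR adjusted p = 0.0186) missed the threshold without any one of the high-fat libraries (0.0512 to 0.0611) and without normal-diet library 9 (0.0610).

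**Figure D5:**
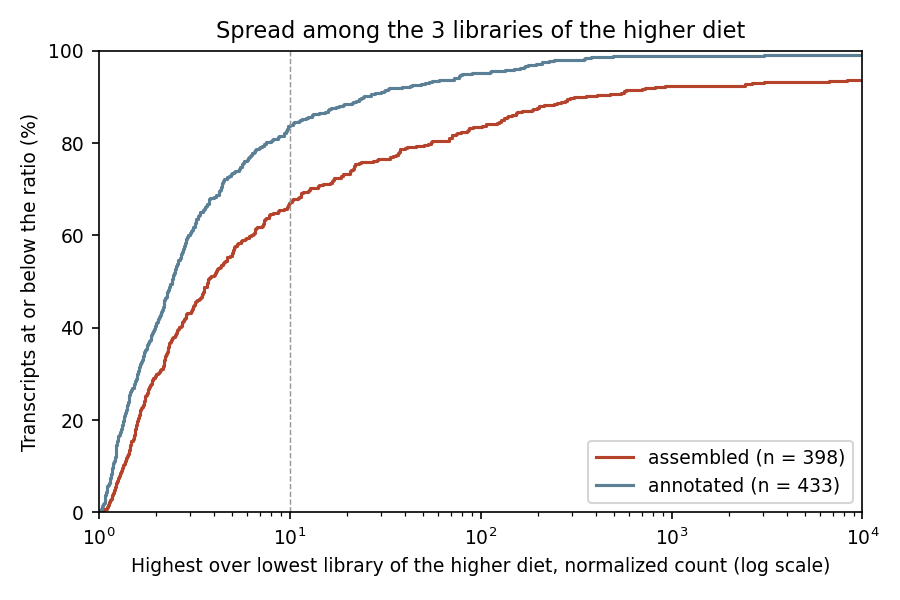
Cumulative percent of transcripts (vertical axis) by the ratio of the highest to the lowest library of the higher diet in normalized counts (log axis), for 398 assembled and 433 annotated transcripts. The dashed line marks a ratio of 10, which 32.9% of assembled and 16.4% of annotated transcripts reached. Transcripts with a library at 0 have no finite ratio, so the curves stay below 100%.

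Some assembled transcripts overlapped several annotated genes by genomic span. Exons were not compared, so a gene lying within an intron was counted too, and joining of genes was not tested. Of the 398, 93 overlapped at least 2 annotated genes on their strand, and 33 (8.29%) overlapped at least 2 protein-coding genes, against 19 annotated transcripts (4.39%). Of the 33, 20 had higher and 13 lower means with high-fat food, and 5 had a library at 0 beside one with at least 100 on the same diet. MSTRG.25745.16 covers Ttyh1, a membrane protein gene, and the neighbouring Leng8 with 27 exons. It had 6, 14 and 9 counts in high-fat libraries, against 1079, 864 and 927 in normal-diet libraries, with no overlap (log2 fold change -6.61 ± 0.51, edgeR adjusted p = 0.00183). In the same locus an annotated Ttyh1 transcript had 108, 112 and 70 counts in high-fat libraries against 14, 18 and 10 in normal-diet libraries, and an annotated Leng8 transcript had 0 in all high-fat libraries against 47, 110 and 138 in normal-diet libraries.

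The transcripts with the most exons were dynein heavy chains and a lipid transfer protein. MSTRG.423.4 (81 exons, 15260 bases) ran through Dnah7c and Dnah7b, which encode near-identical inner arm dynein heavy chains, and the division of reads between such copies is uncertain. It had 8555, 0 and 4948 counts in high-fat libraries and 0 in all normal-diet libraries. MSTRG.24725.6 over Dnah6 (73 exons) had 973, 382 and 763 counts in high-fat libraries, against 31, 15 and 16 in normal-diet libraries (log2 fold change 5.09 ± 0.67, edgeR adjusted p = 0.00279). MSTRG.14925.7 over Vps13a (70 exons), a gene for a lipid transfer protein at membrane contacts, had 0 in all high-fat libraries, against 858, 736 and 391 in normal-diet libraries, at least 221-fold lower. Dnah6 and Vps13a did not overlap between diets, while high-fat library 11 put Dnah7c with the normal-diet libraries.

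No annotated gene lay on the strand of 17 assembled transcripts, 9 higher with high-fat food and 8 lower. They had a median of 2 exons and 1328 bases, and 13 of them lay opposite an annotated gene, 10 opposite a protein-coding one. MSTRG.25446.1 (2 exons, 16347 bases, chr6:127796330-127817243, plus strand) had 616, 616 and 769 counts in high-fat libraries, against 122, 87 and 261 in normal-diet libraries (log2 fold change 2.12 ± 0.49, edgeR adjusted p = 0.00773). MSTRG.1479.3, opposite Ier5, an immediate early gene, had 840, 402 and 419 counts in high-fat libraries, against 72, 16 and 43 in normal-diet libraries. MSTRG.4714.2, opposite Nxn, the gene of nucleoredoxin, had 458, 122 and 358 counts in high-fat libraries, against 33, 37 and 80 in normal-diet libraries. None of these 3 overlapped between diets.

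MSTRG.3158.4 (chr10:86568478-86613558, minus strand) was lower, with 65, 35 and 71 counts in high-fat libraries against 709, 169 and 478 in normal-diet libraries. MSTRG.7674.2, with 3 exons and 654 bases, had 413, 27 and 253 counts in high-fat libraries and 0 in all normal-diet libraries. MSTRG.3128.1 (chr10:85760342-85761635, minus strand), with a single exon of 1294 bases and no gene on either strand, had 132, 173 and 109 counts in high-fat libraries, against 3, 6 and 7 in normal-diet libraries. The diets did not overlap in any of the 3. The single-exon transcripts within introns of Plag1 and of 1700026F02Rik were scarce, with at most 31 counts in any library.

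Of 22 gene lists with 530 genes, 11 had assembled members, 44 in all. Of these, 19 had higher and 25 lower means with high-fat food, and edgeR called all 39 that could be tested, beside 99.7% of all listed transcripts.

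The piRNA pathway, which silences transposons in germ cells, had 4 assembled members and no annotated listed one. Piwil2 and Tdrd12 were lower on the high-fat diet. MSTRG.26345.3 over Tdrd12, a Tudor protein, had 0 in all high-fat libraries, against 1962, 3073 and 3066 in normal-diet libraries, at least 876-fold lower. MSTRG.9639.2 over Piwil2, a Piwi protein of early germ cells, had 0 in all high-fat libraries, against 120, 2018 and 7317 in normal-diet libraries. Piwil1, the Piwi protein of pachytene spermatocytes and round spermatids, had MSTRG.23472.2 at 147, 270 and 186 counts in high-fat libraries, against 34, 78 and 30 in normal-diet libraries (log2 fold change 2.11 ± 0.52, edgeR adjusted p = 0.00899). MSTRG.8415.4 over the RNA helicase gene Ddx4 had 663, 3183 and 18 counts in high-fat libraries, against 9, 16 and 20 in normal-diet libraries. High-fat library 12 was within the normal-diet range, and the Ddx4 call (edgeR adjusted p = 0.0134) was lost without normal-diet library 7, 8 or 9 (0.0516 to 0.0545) and with limma-voom (0.190).

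All 3 assembled members of the meiosis list were lower on the high-fat diet and called, where 44% of all tested transcripts were called lower. They came from 2 genes, and of the 3 annotated listed transcripts of this list 1 was higher and 2 were lower. MSTRG.23727.2 and MSTRG.23727.4 cover Stag3, a cohesin subunit of meiotic chromosomes. MSTRG.23727.2 had 723, 1034 and 837 counts in high-fat libraries, against 4591, 2194 and 4379 in normal-diet libraries. MSTRG.22915.5 over Hfm1, a helicase of meiotic crossover formation, had 4, 6 and 6 counts in high-fat libraries, against 1563, 1044 and 11 in normal-diet libraries, with library 9 near the high-fat values (edgeR adjusted p = 0.00894, and 0.0779 with limma-voom). No spermatocyte marker was among the listed transcripts, so their levels were not available beside these values.

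The flagellum list had 7 assembled members, 5 higher with high-fat food and 2 lower, of which 5 could be tested and were called. The 2 annotated listed transcripts of this list were both lower. Dnaaf1 and Dnah7c were given above. MSTRG.8864.9 over Dnah12, an inner arm dynein heavy chain, had 6, 6078 and 1761 counts in high-fat libraries, against 0, 2 and 1 in normal-diet libraries. MSTRG.22059.6 over Agbl5, which trims glutamates from tubulin tails, had 0 in all high-fat libraries, against 803, 4502 and 3887 in normal-diet libraries, at least 975-fold lower, and has the end without a hexamer shown above. In the acrosome list, besides the Spaca3 pair, MSTRG.10917.7 over Acr, the gene of the acrosomal protease acrosin, had 57, 101 and 33 counts in high-fat libraries, against 8, 12 and 11 in normal-diet libraries (log2 fold change 2.66 ± 0.55, edgeR adjusted p = 0.00627).

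Histone methylation and chromatin remodelling had 9 assembled members, 4 higher and 5 lower, and 6 were tested, of which 2 were called higher and 4 lower. MSTRG.5450.1 over Bptf, a subunit of the remodeller NURF, had 479, 369 and 407 counts in high-fat libraries, against 1042, 953 and 1359 in normal-diet libraries (log2 fold change -1.38 ± 0.32, edgeR adjusted p = 0.00787). MSTRG.31159.3 over Msl2, a ubiquitin ligase of the MSL histone acetyltransferase complex, had 0 in all high-fat libraries, against 610, 2527 and 1737 in normal-diet libraries. Cramp1l had 0 in all high-fat libraries, against 817, 1577 and 2126 in normal-diet libraries. Baz2a, a subunit of the remodeller NoRC, had 0 in all high-fat libraries and 4003, 11421 and 0 counts in normal-diet libraries, so library 9 stood with the high-fat libraries.

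All 4 assembled members of the translation list were lower on the high-fat diet and called, where 44% of all tested transcripts were called lower. Of the 4 annotated listed transcripts of this list, 1 was higher and 3 were lower. Abce1, which recycles ribosomes, had 84, 94 and 15 counts in high-fat libraries, against 589, 966 and 1785 in normal-diet libraries. Larp1, which binds mRNAs of ribosomal proteins, had 0 in all high-fat libraries, against 269, 1501 and 978 in normal-diet libraries. Cluh, which binds mRNAs of mitochondrial proteins, had 0 in all high-fat libraries, against 502, 2267 and 1114 in normal-diet libraries. The fourth, MSTRG.25683.2, overlaps Rps4l and Gm44020 and was the only one with an annotated transcript in its locus. That annotated Rps4l transcript had the opposite direction, with 3803, 1718 and 2066 counts in high-fat libraries against 194, 93 and 167 in normal-diet libraries.

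Both assembled members of the splicing list, over Srsf11 and the Ttyh1 and Leng8 locus, were lower. Srsf11, a splicing factor rich in serine and arginine, had 0 in all high-fat libraries, against 167, 128 and 277 in normal-diet libraries. Golgi and vesicle trafficking had 5 assembled members, 4 lower (Copa, Ap2a1, Vps13a and Sec23b) and 1 higher (Sec23ip). All were called, beside 99.7% of all listed transcripts tested. The 4 annotated listed transcripts of this list were all higher, opposite to most of its assembled members. The annotated Sec23b transcript was higher, and the sum of that locus was called higher (1274 ± 215 on the high-fat diet and 748 ± 120 on the normal diet, edgeR adjusted p = 0.0375). MSTRG.27805.6 over Sec23ip, a partner of the COPII coat, had 5138, 1481 and 1968 counts in high-fat libraries and 0 in all normal-diet libraries. MSTRG.1760.1 over Copa, a subunit of the COPI coat, had 78, 101 and 156 counts in high-fat libraries, against 67, 6143 and 9678 in normal-diet libraries. Normal-diet library 7 was below all high-fat libraries for Copa, and its call (edgeR adjusted p = 0.0143) was lost without any one of the high-fat libraries (0.0534 to 0.0592) and with limma-voom (0.305). The Ap2a1 call (edgeR adjusted p = 0.0183) was lost without high-fat library 10, 11 or 12 (0.0547 to 0.0703), without normal-diet library 7 (0.0516) and with limma-voom (0.161).

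The ubiquitin list had 4 assembled members. Fbxo3, Ubr4 and Usp42 had higher means on the high-fat diet and Klhl24 a lower one. All were called, beside 99.7% of all listed transcripts tested. The 3 annotated listed transcripts of this list were all lower. Usp42, a deubiquitinase, had 1051, 1367 and 708 counts in high-fat libraries, against 72, 130 and 73 in normal-diet libraries (log2 fold change 3.55 ± 0.49, edgeR adjusted p = 0.00294). The list for the respiratory chain and thermogenesis, the latter named in the title of the series, had 2 assembled members, 1 higher and 1 lower. The 7 annotated listed transcripts of this list were all higher. Its assembled members were Adrb1, given above, and MSTRG.14485.7 over Zfp516, a transcription factor of brown fat. Zfp516 had 674, 27 and 341 counts in high-fat libraries, against 9, 13 and 13 in normal-diet libraries (log2 fold change 4.96 ± 1.22, edgeR adjusted p = 0.00893). The lipid list had 1 member, MSTRG.20378.1 over Plin2, the coat protein of lipid droplets. It had 562, 371 and 316 counts in high-fat libraries, against 0, 1 and 2 in normal-diet libraries (log2 fold change 8.61 ± 0.90, edgeR adjusted p = 0.00184), and it started 1175 bases from the nearest annotated start.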

How the data were processed

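The deposited comparison table holds estimated counts of each transcript in 6 libraries, which the authors deposited as whole numbers and per the submitters' processing notes made with Trimmomatic, HISAT2, StringTie and DESeq on GRCm38 (no versions named). The authors' scaled counts, rounded by them, were treated as a score. The deposited p-value and its adjusted form were used only to recover how many transcripts the authors tested. The deposited signal column, the authors' mean over all libraries, and their deposited ratio and log2 fold change give no value in the text. Other deposited tables were not used. The depth of whole libraries was not analysed here.

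Counts were divided by the authors' size factors, recovered at counts of at least 5000, and given as mean ± SD. A fold against a diet at 0 uses a floor of 3 counts per library and covers counting error only. Counts were tested in edgeR 4.0.16 (R 4.3.3; glmQLFit, glmQLFTest, filterByExpr, minimum count 10). The SE beside a log2 fold change was its absolute value divided by the square root of the quasi-likelihood F statistic. It was thus derived from the test and not estimated separately. The p-values were adjusted by Benjamini-Hochberg across every listed transcript tested, at a threshold of 0.05. The test was repeated after summing per merge identifier. The step was tested on simulated data. DESeq2 1.42.0 and limma-voom (limma 3.58.1) were alternatives, beside TMM and other filters. Genes are from GENCODE M21 (small RNA genes left out); an assembled transcript is named by the gene on its strand whose span it shares most, and the name is uncertain where several genes overlap. Promoter windows are from RefSeq GRCm38.p6.

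The assembled transcripts, gene lists and tests were chosen with earlier results of these data known. Transcripts were named by rules: the 8 most abundant shared loci with opposite directions, the 6 most abundant stand-alone transcripts per direction, the 6 most abundant without a gene, 3 each with the most exons and with a single exon, up to 4 per gene list, and 3 each of loci with the most assembled transcripts and of the most even transcripts (counts in both diets, mean of at least 100). Other loci with several listed transcripts and the sequences printed, were picked after their values were seen. All sample columns were used.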

Additional observations from a re-analysis of the deposited data

How the results depend on the processing

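The counts of calls, of higher means, of transcripts at 0 in a diet, of transcripts that stood alone, of matching starts and ends, of hexamers and of ratios of at least 10 stayed within 1.5 times under the other settings tried (matches within 10 or 200 bases, a ratio of at least 5, AATAAA alone, the last 30 bases, at most 3 counts in place of 0, other scalings, tests, filters and libraries), with 1 exception among calls. With adjustment over all 95751 transcripts the authors tested, edgeR called 0 assembled transcripts, where 335 had an unadjusted p under 0.05. The unlisted transcripts have no p-value here and entered that adjustment as not different. Apart from that adjustment, calls ranged from 256 (threshold 0.01) to 398 (DESeq2), with 298 under limma-voom, and calls of summed loci from 217 to 352. The 398 calls of DESeq2 are no independent result, since the authors listed these transcripts with DESeq on the same libraries. Leaving out 1 library at a time gave 330 to 340 calls, and 283 to 288 for loci. TMM lowered the median log2 fold change of all tested transcripts to 0.94 and DESeq2's size factors to 0.73, against 1.37 with the authors' size factors; no named transcript changed direction under the other scalings, tests and filters or with a library left out. At the threshold of 0.05 with adjustment over the listed transcripts, 10 of 58 named transcripts tested lost the call under at least 1 of these, 8 of them with limma-voom; Mtmr9 lost it without normal-diet library 8 (adjusted p = 0.0742) or 9 (0.0663), and Cnot1 MSTRG.29325.3 with limma-voom (0.0552). Omitting transcripts that switch between 0 and 100 counts within a diet, and counting each end position once (118 ends with a hexamer), were chosen after seeing the data. No paired analysis was possible because the library numbers, 7 to 9 and 10 to 12, are not shared between diets.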
